A study of Mus musculus with 4 samples.

Results

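The insulin-like growth factor (IGF) system was described in cultured mouse mammary fibroblasts by 10 of the 18194 genes with a probe set of their own on the array: the ligands *Igf1* and *Igf2*, the receptors *Igf1r* and *Igf2r*, and the binding proteins *Igfbp2*, *Igfbp3*, *Igfbp4*, *Igfbp5*, *Igfbp6* and *Igfbp7*. Members were taken by gene symbol, on every probe set that the platform annotation gives to that 1 symbol. They were read by 28 probe sets. 4 arrays were hybridized, 1 for each genotype, so that no difference between 2 arrays has a replicate check, and no test was made.

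Fibroblasts came from mammary glands of FVB/N mice at 16 weeks of age and were grown in serum before RNA extraction. The normal Ets2-present array held fibroblasts of *Ets2db/loxP* mice and the normal Ets2-null array those of *FspCre;Ets2db/loxP* mice. The ErbB2 Ets2-present array held fibroblasts of *ErbB2;Ets2db/loxP* mice and the ErbB2 Ets2-null array those of *ErbB2;Fsp-cre;Ets2db/loxP* mice. All 4 genotypes carry *Ets2db*, a conventional knockout allele of the transcription factor gene *Ets2*, so the Ets2-present fibroblasts have a single functional allele. Cre is driven by the promoter of fibroblast specific protein 1 (the gene *S100a4*), and absence of *Ets2* cannot be told apart from presence of Cre. By the labels the ErbB2 oncogene was present in the epithelial cells of the gland and the profiled cells were fibroblasts, although epithelial transcripts were read on the arrays. The *Ets2* transcript is no check of the labels here, because the position of its probes relative to the deleted part was not determined, and its brightest probe set read between 8.14 and 8.35 on the 4 arrays.

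IGF1 and IGF2 are small secreted hormones that activate the IGF1 receptor, a tyrosine kinase that signals through insulin receptor substrates, PI3 kinase and AKT. The IGF2 receptor takes up IGF2 for degradation and does not signal as a kinase. Binding proteins hold the ligands in the extracellular space and either withhold them from the receptor or carry them to it, and proteases release the ligands by cutting them. In the mammary gland, stromal fibroblasts are a local source of IGF1, which acts on the growing epithelium downstream of growth hormone.

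ETS2 belongs to the ETS family of transcription factors, which bind DNA around the letters GGAA. The 250 bases before a RefSeq transcription start (GRCm38.p6) are shown for the 3 members that passed 2-fold in a comparison of Ets2-null with Ets2-present fibroblasts, each 5′ to 3′ on the strand of the gene. Capitals mark GGAA or its reverse complement TTCC. *Igf1* is read at chr10:87860861-87861110 on the plus strand, *Igfbp3* at chr11:7213924-7214173 on the minus strand, and *Igf2*, which has 4 listed starts, at the one farthest upstream, chr7:142666817-142667066 on the minus strand.
Igf1: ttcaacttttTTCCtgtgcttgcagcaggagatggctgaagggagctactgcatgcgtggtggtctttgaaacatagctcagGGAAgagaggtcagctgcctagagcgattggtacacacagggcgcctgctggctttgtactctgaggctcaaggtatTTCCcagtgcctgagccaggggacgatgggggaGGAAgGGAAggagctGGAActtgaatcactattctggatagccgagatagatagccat
Igf2: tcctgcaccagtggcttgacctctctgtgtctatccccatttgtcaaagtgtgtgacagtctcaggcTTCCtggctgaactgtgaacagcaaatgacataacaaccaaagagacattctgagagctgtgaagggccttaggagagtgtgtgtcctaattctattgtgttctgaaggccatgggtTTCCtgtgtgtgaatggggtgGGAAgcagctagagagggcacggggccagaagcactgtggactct
Igfbp3: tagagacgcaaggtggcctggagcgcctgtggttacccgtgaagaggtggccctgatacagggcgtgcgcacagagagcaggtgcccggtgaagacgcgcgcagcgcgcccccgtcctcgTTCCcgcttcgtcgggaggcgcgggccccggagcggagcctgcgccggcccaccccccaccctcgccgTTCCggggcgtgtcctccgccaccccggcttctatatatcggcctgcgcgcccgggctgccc

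GGAA stood 6 times on both strands together in the *Igf1* window, 3 times in the *Igf2* window shown and 2 times in the *Igfbp3* window, where the median of all windows was 3. The *Igf2* windows not shown held it 2, 3 and 7 times and held no AGGAAG. Which *Igf2* start these fibroblasts use was not determined. All 10 members matched a window (14 windows in all), and all 14 held GGAA on at least 1 strand. So did 93.4% of the 32851 promoter windows of the same length, so that a match does not set these genes apart. The longer AGGAAG, which contains GGAA, was present in 29.5% of all windows and in 5 of the 14 windows of the members (*Igf1*, *Igf2*, *Igf2r*, *Igfbp2* and *Igfbp6*). CGGAAG, which also contains GGAA, was present in 13.6% of all windows and in 0 of the 14. A match is a description of the letters and not a binding site.

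Values are log2 expression after robust multi-array averaging (RMA), and each gene is given on its brightest probe set, the one with the highest mean over the 4 arrays, unless another is named. RMA gives no detection call, so a value under 6 is treated here as not shown to be above background. The 4 arrays had medians over all probe sets between 5.51 and 5.54. Of the 28 probe sets of the IGF genes, 24 read 6 or more on every array and 4 read below 6 on at least 1 array. Each member read 6 or more on every array on its brightest probe set. A difference of 1 on this scale is 2-fold and a difference of 2 is 4-fold, the size used in the study's methods. Over the 18194 genes the median size of the Ets2 difference (null against present, sign dropped) was 0.145 in normal and 0.189 in ErbB2 fibroblasts, and the robust SD of the signed differences was 0.215 and 0.271.

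**Figure D1:**
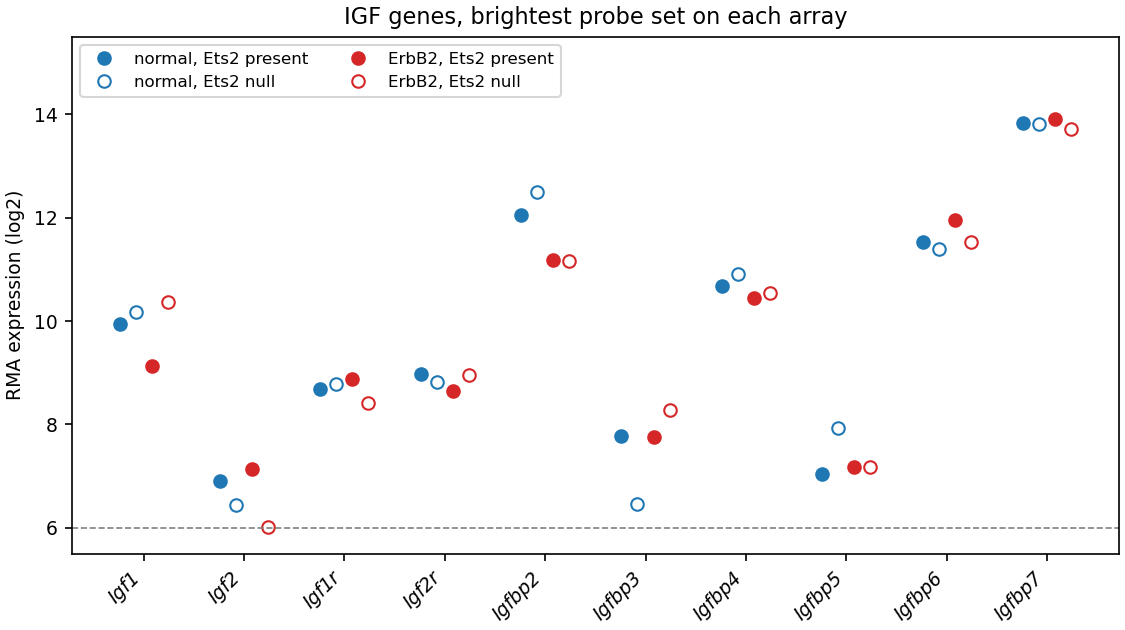
RMA log2 expression (y axis) of the 10 IGF genes (x axis) on the brightest probe set, with 1 point for each array; filled points are Ets2 present, open points Ets2 null, blue normal and red ErbB2, and the dashed line is log2 6. *Igf1* was lowest on the ErbB2 Ets2-present array at 9.13, *Igfbp3* was lowest on the normal Ets2-null array at 6.45, and *Igfbp7* stayed between 13.72 and 13.90.

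The 2 ligands moved in opposite directions when *Ets2* was absent from ErbB2 fibroblasts. *Igf1*, the ligand that fibroblasts supply to the epithelium, read 9.95 on the normal Ets2-present array, 10.18 on the normal Ets2-null array, 9.13 on the ErbB2 Ets2-present array and 10.38 on the ErbB2 Ets2-null array. The ErbB2 Ets2-present array therefore stood apart below the other three. *Igf1* was 2.37-fold higher in Ets2-null than in Ets2-present ErbB2 fibroblasts (log2 difference 1.25), and 1.30% of all genes differed by at least as much there. In normal fibroblasts the difference was 0.23, a size that 29.9% of genes reached. With *Ets2* present, *Igf1* was 1.76-fold lower in ErbB2 than in normal fibroblasts (log2 difference −0.81), while in Ets2-null fibroblasts the ErbB2 array was 0.20 higher.

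The other probe sets of *Igf1* had the sign of the brightest in every comparison except that between the normal arrays. All 4 probe sets read higher on the ErbB2 Ets2-null array than on the ErbB2 Ets2-present array, by 0.66 to 1.25, with a mean of 0.96. All 4 also read lower in ErbB2 than in normal fibroblasts with *Ets2* present (log2 differences of −0.61 to −0.81). In normal fibroblasts the Ets2 difference ran from −0.13 to 0.23, and the other 3 probe sets lay below 0 where the brightest lay above it. Only the brightest probe set passed 2-fold between the ErbB2 arrays. Probe sets of 1 gene share the same RNA and are no replicates. The antisense transcript *Igf1os* has a probe set of its own, which read between 3.73 and 3.85.

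*Igf2*, a ligand of the embryo and fetus that is transcribed from the paternal allele, read 6.91 on the normal Ets2-present array, 6.45 on the normal Ets2-null array, 7.13 on the ErbB2 Ets2-present array and 6.02 on the ErbB2 Ets2-null array. Both Ets2-null arrays lay below both Ets2-present arrays, and the lowest value was at the background limit. *Igf2* was 2.17-fold lower in Ets2-null ErbB2 fibroblasts (log2 difference −1.12), and 1.67% of genes differed by at least as much. In normal fibroblasts it was lower by 1.38-fold (log2 difference −0.47), a size reached by 7.58% of genes. The second probe set of *Igf2* read 3.55 to 3.87, under the background limit on every array, and its differences of 0.06 and 0.08 did not share the direction. The *Igf2* difference therefore rests on a single probe set near background. *Igf2os*, which is transcribed from the opposite strand, read 5.57 to 5.73 on its own probe set, also under the limit.

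**Figure D2:**
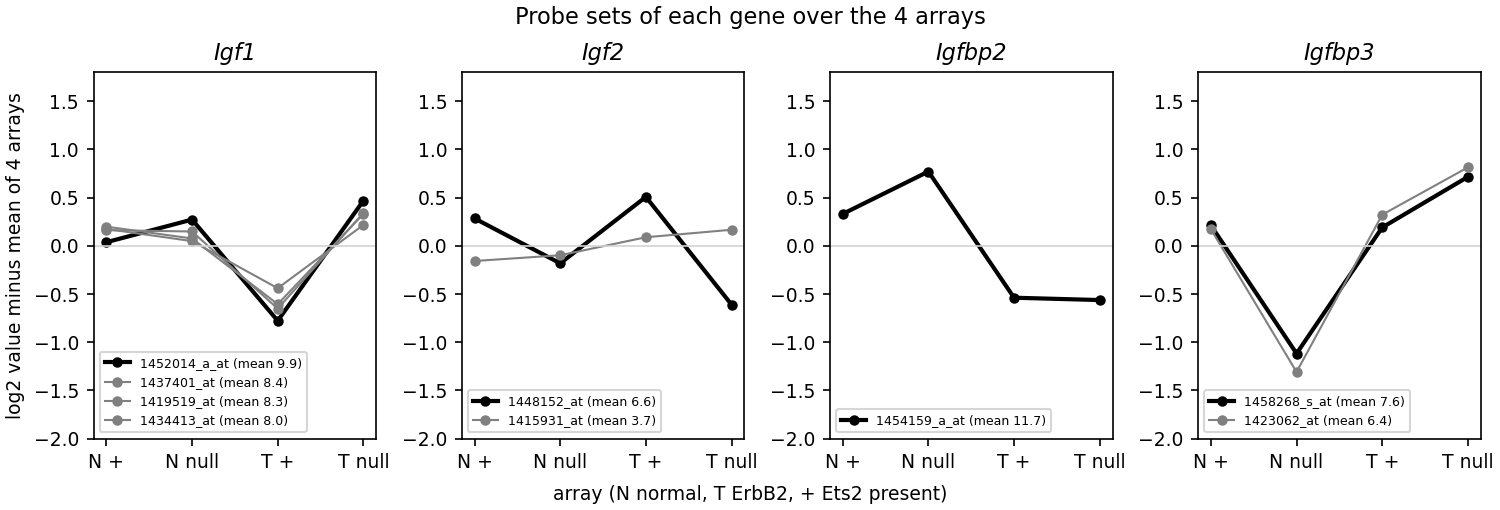
Log2 value minus the mean of the 4 arrays (y axis) for each probe set of *Igf1*, *Igf2*, *Igfbp2* and *Igfbp3* on the 4 arrays (x axis; N normal, T ErbB2, + Ets2 present); the black line is the brightest probe set and grey lines are the others, and lines join values only to guide the eye. The 4 *Igf1* probe sets share the low ErbB2 Ets2-present value and both *Igfbp3* probe sets share the low normal Ets2-null value, whereas the dim *Igf2* probe set does not follow the brighter one.

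The receptors differed by less than 2-fold in all 4 comparisons on their brightest probe sets. *Igf1r*, which encodes the signalling receptor, read 8.68, 8.79, 8.89 and 8.41 on the normal Ets2-present, normal Ets2-null, ErbB2 Ets2-present and ErbB2 Ets2-null arrays. It was thus lowest on the ErbB2 Ets2-null array, 0.47 below the ErbB2 Ets2-present array. All 4 *Igf1r* probe sets that read above 6 on an array were lower there (log2 differences of −0.11 to −0.71), and the fifth, which stayed under 6, read 0.48 higher. A dim probe set of *Igf1r* with values of 6.25, 6.85, 6.46 and 5.74 gave the widest difference, −1.11 between ErbB2 and normal Ets2-null fibroblasts, where the brightest gave −0.37.

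*Igf2r*, the receptor that clears IGF2, read 8.97, 8.82, 8.65 and 8.95 on the arrays in the same order. Its differences were −0.16 in normal and 0.29 in ErbB2 fibroblasts for Ets2-null minus Ets2-present, the first within and the second just past 1 robust SD of all genes. Both probe sets of *Igf2r* had the same sign in each of the 4 comparisons. The ErbB2 Ets2-present array was lowest for both *Igf2r* and *Igf1*, with *Igf2r* spanning 0.32 and *Igf1* 1.25 over the 4 arrays.

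Among the binding proteins, *Igfbp3* differed most. IGFBP3 is the main carrier of IGFs in blood and is also secreted by fibroblasts. On its brightest probe set *Igfbp3* read 7.78 on the normal Ets2-present array, 6.45 on the normal Ets2-null array, 7.76 on the ErbB2 Ets2-present array and 8.28 on the ErbB2 Ets2-null array. The Ets2-null arrays thus held its lowest and its highest value, and the Ets2-present arrays differed by only 0.02. *Igfbp3* was 2.51-fold lower in Ets2-null than in Ets2-present normal fibroblasts (log2 difference −1.33, a size reached by 0.451% of genes). In ErbB2 fibroblasts it was 1.44-fold higher (log2 difference 0.52, reached by 11.3% of genes). The difference between these differences was 1.85, the widest among the 10 members on their brightest probe sets, and it has no replicate spread to be set against.

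The second *Igfbp3* probe set read 6.55, 5.07, 6.70 and 7.19 in the same order. Its Ets2 differences were −1.48 in normal and 0.49 in ErbB2 fibroblasts, with the same signs as the first. Its normal Ets2-null value lies under the background limit, so the size of −1.48 was not measured above background. Between ErbB2 and normal Ets2-null fibroblasts the brightest probe set differed by 1.83 (3.56-fold) and the second by 2.12, past 4-fold, against a normal value under the background limit. The brightest probe set bears a name suffix that marks probes shared with other transcripts, and the second does not.

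*Igfbp2*, an abundant binding protein of serum, separated the arrays by oncogene instead. It is read by a single probe set, at 12.06 on the normal Ets2-present array, 12.50 on the normal Ets2-null array, 11.19 on the ErbB2 Ets2-present array and 11.16 on the ErbB2 Ets2-null array. Both ErbB2 arrays lay below both normal arrays. *Igfbp2* was 1.83-fold lower in ErbB2 than in normal fibroblasts with *Ets2* present (log2 difference −0.87, reached by 1.42% of genes) and 2.52-fold lower in Ets2-null fibroblasts (−1.33, reached by 1.01%). The Ets2 differences were 0.44 in normal and −0.02 in ErbB2 fibroblasts.

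*Igfbp5*, which lies next to *Igfbp2* on chromosome 1 and whose product rises in the involuting mammary gland, read 7.04, 7.93, 7.18 and 7.18 on its brightest probe set. The normal Ets2-null array was 1.86-fold above the Ets2-present one (log2 difference 0.89) and the 2 ErbB2 arrays were level. The second *Igfbp5* probe set, at 6.87, 6.75, 6.87 and 6.52, did not show the rise and gave −0.12. The neighbours *Igfbp2* and *Igfbp5* were both highest on the normal Ets2-null array on their brightest probe sets. That of *Igfbp5* bears the name suffix of probes shared with other transcripts, and its second probe set does not. *Igfbp3* has *Igfbp1* as its neighbour on chromosome 11, and *Igfbp1*, a binding protein made mainly in liver, read 3.04 to 3.51, under the background limit on every array.

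The remaining binding proteins varied little. *Igfbp4*, which inhibits IGF action until the protease PAPP-A cuts it, read 10.67, 10.91, 10.45 and 10.53, and its 6 probe sets were all lower in ErbB2 than in normal fibroblasts, with log2 differences of −0.22 to −0.30 where *Ets2* was present and of −0.09 to −0.44 in Ets2-null fibroblasts. *Igfbp6*, which prefers IGF2, read 11.52, 11.39, 11.96 and 11.52 on its single probe set, highest on the ErbB2 Ets2-present array. It was 0.43 higher in ErbB2 than in normal fibroblasts with *Ets2* present (reached by 9.09% of genes). Between the ErbB2 arrays it differed by −0.44 (reached by 16.6%). *Igfbp7*, a relative that binds IGFs weakly, read 13.84, 13.80, 13.90 and 13.72. Its 2 dimmer probe sets differed from each other in sign between the ErbB2 arrays, at −0.44 and 0.48.

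**Figure D3:**
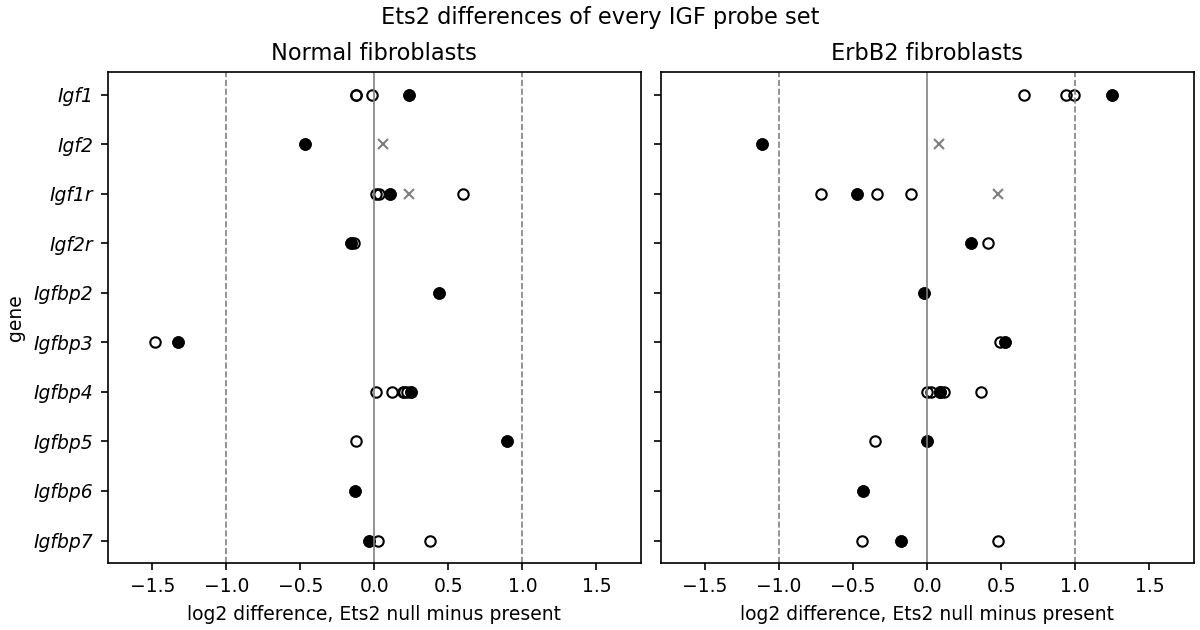
Log2 difference, Ets2 null minus Ets2 present (x axis), for every probe set of the 10 IGF genes (y axis) in normal (left) and ErbB2 (right) fibroblasts; filled points are the brightest probe set, open points the others, crosses probe sets under log2 6 on both arrays, and dashed lines mark 2-fold. *Igfbp3* was past 2-fold in normal fibroblasts (−1.33, and −1.48 on the probe set whose Ets2-null value of 5.07 is under log2 6), and *Igf1* (1.25) and *Igf2* (−1.12) were past it in ErbB2 fibroblasts.

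Counted by size, few members passed either limit. Between Ets2-null and Ets2-present normal fibroblasts 0 of 10 members passed 4-fold on any probe set (0.121% of all genes did), 0 were more than 2-fold higher (0.621% of all genes) and 1, *Igfbp3*, was more than 2-fold lower (0.357%). In ErbB2 fibroblasts 0 passed 4-fold (0.445%), 1, *Igf1*, was more than 2-fold higher (0.341%) and 1, *Igf2*, was more than 2-fold lower (1.74%). Between ErbB2 and normal Ets2-present fibroblasts 0 members passed 4-fold (0.132%), 0 were more than 2-fold higher (0.83%) and 0 were more than 2-fold lower (0.17%). Between ErbB2 and normal Ets2-null fibroblasts 1 passed 4-fold (0.363%), which was *Igfbp3* on its dimmer probe set, 1 was more than 2-fold higher (*Igfbp3*, 0.544%) and 1 was more than 2-fold lower (*Igfbp2*, 1.51%). Each comparison shares an array with 2 of the others, so these counts are not independent, and 1 gene of 10 is too few to set a share against the background.

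Medians over the 10 members lay near 0 in 3 of the 4 comparisons. The median difference of the 10 members was 0.03 for Ets2-null minus Ets2-present in normal fibroblasts, with 5 above and 5 below 0, and −0.01 in ErbB2 fibroblasts, with 4 above and 6 below. The medians of all genes were −0.00 and 0.04. The sign of the median in ErbB2 fibroblasts turned with the scaling of the arrays (−0.05 after median centring, 0.07 after quantile normalization). For ErbB2 minus normal the median of the members was 0.02 with *Ets2* present and −0.23 in Ets2-null fibroblasts, against −0.02 and 0.03 for all genes. Without regard to sign, the median size of difference of the members was 0.24, 0.36, 0.22 and 0.38 in these 4 comparisons, against 0.145, 0.189, 0.145 and 0.150 for all genes. These 2 sets differ in signal, because every member read 6 or more on all arrays but only 10936 of the 18194 genes reached 6 on any array. RMA narrows differences of dim probe sets, so the sizes do not show that IGF genes vary more than genes of like signal.

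Beyond the members, genes of the pathway were read from lists drawn up by known function. Of 21 adaptors, kinases and other signalling genes below the IGF1 receptor with a probe set of their own, 0 passed 2-fold in any of the 4 comparisons. Their medians were −0.08 in normal and 0.07 in ErbB2 fibroblasts for Ets2-null minus Ets2-present. Over all genes 0.17% to 1.74% passed 2-fold in a given direction and comparison, so 0 of 21 lies near the share of all genes. The other pathway lists are also too short to set a count against these shares. Of 6 other receptors, carriers and binding protein relatives, 1 passed in each Ets2 comparison, and it was the same gene. *Kazald1*, whose product is related to the IGF binding proteins, read 6.40 on the normal Ets2-present array, 8.09 on the normal Ets2-null array, 7.00 on the ErbB2 Ets2-present array and 5.68 on the ErbB2 Ets2-null array. It was 3.23-fold higher in Ets2-null normal fibroblasts (log2 difference 1.69) and 2.50-fold lower in Ets2-null ErbB2 fibroblasts (−1.32), with the last value under the background limit. The signs of *Kazald1* were thus the reverse of those of *Igfbp3*.

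Of 10 proteases that cut binding proteins and their inhibitors (1 of them, *Htra1*, also in the list before), 2 were more than 2-fold lower in Ets2-null normal fibroblasts and 1 in Ets2-null ErbB2 fibroblasts, with 0 higher in either. *Plat*, tissue plasminogen activator, read 9.18, 8.17, 9.17 and 9.75, which is 2.01-fold lower in Ets2-null normal fibroblasts (log2 difference −1.01). *Mmp3*, stromelysin, which cuts matrix and several binding proteins, differed by −1.85 in normal and −3.97 in ErbB2 fibroblasts. Of 7 genes of the growth hormone arm that drives *Igf1*, 1 was more than 2-fold lower in Ets2-null normal fibroblasts, *Socs3*, an inhibitor of cytokine signalling, which read 8.48, 7.25, 8.43 and 8.41 (log2 difference −1.23). In ErbB2 fibroblasts 0 of the 7 passed, and 6 lay below 0, with a median over the 7 of −0.09, within 1 robust SD. *Socs2*, an inhibitor of growth hormone signalling, was just short of the limit (9.35 against 8.36, log2 difference −0.99). In normal fibroblasts *Socs2* went the other way, by 0.71. Of 9 imprinted growth genes and *Igf2* mRNA-binding proteins, 1 passed in a comparison of Ets2-null with Ets2-present fibroblasts, the cell cycle inhibitor *Cdkn1c*, which lies in the imprinted cluster that also holds *Igf2* and was 2.30-fold higher in Ets2-null normal fibroblasts (7.39 against 8.60, log2 difference 1.20) and 0.13 higher in ErbB2 fibroblasts. Between ErbB2 and normal Ets2-null fibroblasts 2 of these 9 were more than 2-fold lower, the imprinted genes *Meg3* (−1.25) and *Peg3* (−1.28). Genes of the other lists passed 2-fold there too. *Kazald1* (−2.41, to a value under the background limit) and *Socs2* (−1.51) were lower, and *Plat* (1.59) and *Socs3* (1.16) were higher. With *Ets2* present, *Mmp3* was higher in ErbB2 than in normal fibroblasts (2.40).

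**Figure D4:**
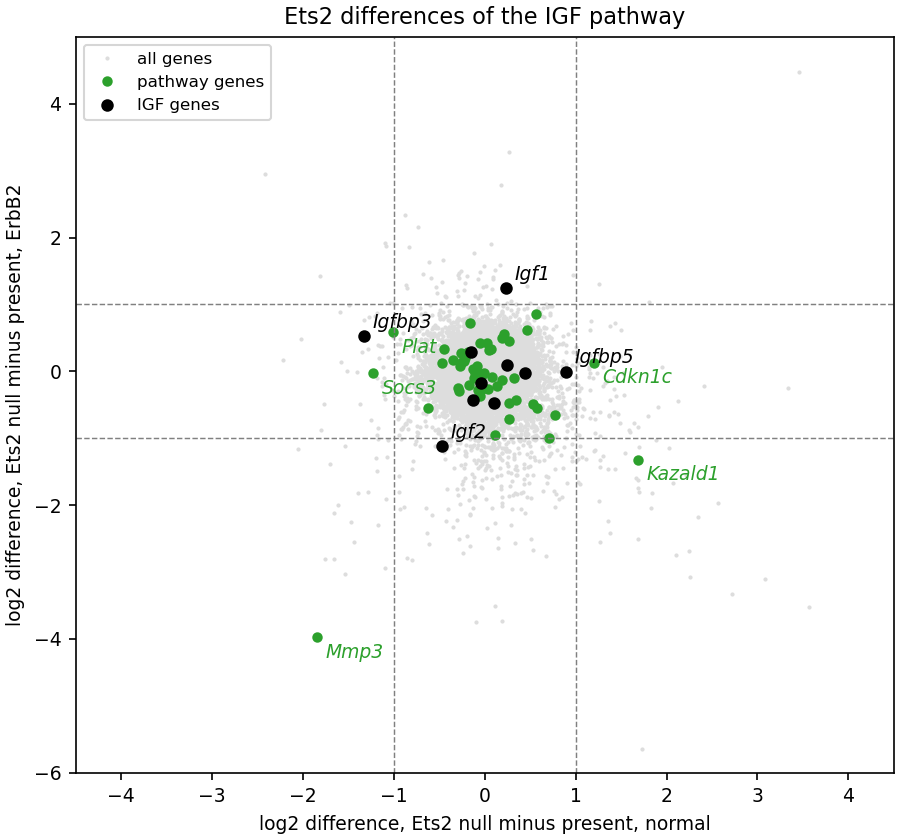
Log2 difference, Ets2 null minus Ets2 present, in normal fibroblasts (x axis) against ErbB2 fibroblasts (y axis), for the IGF genes (black), the pathway genes of the lists (green) and all genes (grey), each on its brightest probe set; dashed lines mark 2-fold. *Igf1* and *Igf2* lie beyond the lines on the vertical axis only, *Igfbp3* beyond the left line only, and *Kazald1* and *Mmp3* beyond the lines on both axes.

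The genes whose values over the 4 arrays lay closest to each member that spanned more than 1 (root mean square distance after each gene's mean was taken off, among 10936 genes reaching 6 on an array) were named without regard to function. For *Igf1* they were *Hcfc1r1* (0.097), *Elovl6* (0.107) and *Plac8* (0.144). For *Igf2* they were *Lasp1* (0.043), *Pdgfb* (0.049) and *Marcksl1* (0.058). For *Igfbp2* they were *Npr3* (0.064), *Nudt6* (0.066) and *Ifi27l2a* (0.106). For *Igfbp3* they were *Plat* (0.128), *Myo7a* (0.137) and *Abca1* (0.167). These distances rest on 4 arrays and are a description, and *Plat* is also in the protease list above.

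Markers of other cell types differed between the same arrays. Of 15 fibroblast markers, 1 read below 6 on the normal Ets2-null array (*Fap*, at 5.85) and 0 on the other arrays. Between the ErbB2 arrays, where *Igf1* was higher and *Igf2* lower without *Ets2*, all 17 macrophage markers read lower on the Ets2-null array and 10 of them by more than 2-fold (median −1.20), from *Ctss* at −2.50 to *Cd14* at −0.10. Their summed level was 14.26 on the normal Ets2-present, 13.91 on the normal Ets2-null, 14.99 on the ErbB2 Ets2-present and 13.81 on the ErbB2 Ets2-null array, and 0 of the 17 were below 6 on all arrays. The array with the highest macrophage sum was thus the one with the lowest *Igf1*. Skeletal muscle markers were more than 2-fold lower for 10 of 16 on the ErbB2 Ets2-null array (median −1.63), with summed levels of 11.51, 12.19, 11.89 and 10.33 in the same order, and *Myod1*, *Myf5*, *Myf6* and *Myh8* were below 6 on all arrays. On the normal Ets2-null array 12 of the 16 were below 0 (median −0.48), 3 of them by more than 2-fold, and 1, *Acta1*, was more than 2-fold higher. The higher sum on that array goes with *Acta1*, which read 10.34 on the normal Ets2-present and 11.89 on the normal Ets2-null array.

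Epithelial markers were more than 2-fold higher for 7 of 14 on the Ets2-null normal array (median 1.13), where *Igfbp3* was lower, and more than 2-fold lower for 8 of 14 on the Ets2-null ErbB2 array (median −1.22). Their summed levels were 10.34, 11.72, 11.44 and 9.87, with *Cdh1*, *Cldn7*, *Elf5*, *Trp63* and *Esrp1* below 6 on all arrays. These sums were high on the normal Ets2-null and ErbB2 Ets2-present arrays, the pair on which *Kazald1* was also highest. Fibroblast markers were themselves lower for 12 of 15 genes on the normal Ets2-null array (median −0.47, summed level 16.65 against 16.95 to 16.97 on the others), with *Col3a1* at −1.13 and *Lum* at −1.06 past 2-fold. Endothelial markers were more than 2-fold lower for 3 of 11 there (median −0.50) and for 2 of 11 on the ErbB2 Ets2-null array, where all 11 were below 0 (median −0.50, summed levels 10.89, 10.37, 10.58 and 10.13; *Tek*, *Tie1* and *Vwf* below 6 on all arrays). Of 9 adipocyte markers 2 were more than 2-fold higher on the normal Ets2-null array (*Pparg* at 1.79 and *Plin4* at 1.95) and 0 passed between the ErbB2 arrays, with medians of 0.13 and 0.01 (summed levels 12.44, 13.05, 12.87 and 12.87; *Adipoq*, *Cidec* and *Lep* below 6 on all arrays). Of 9 smooth muscle and pericyte markers 1 was more than 2-fold higher and 1 lower in normal fibroblasts without *Ets2*, and 1 was lower in ErbB2 fibroblasts, with medians of 0.06 and −0.58 (summed levels 15.33, 15.43, 15.33 and 15.02, none below 6 on all arrays). Fewer cells of a type and less RNA per cell cannot be told apart in bulk RNA, and the part of these cell types in the IGF values was not tested.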

How the data were processed

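Total RNA of cultured mammary fibroblasts was hybridized to 4 Affymetrix arrays, 1 per genotype. The deposited values are log2 expression after RMA by the authors (background correction, quantile normalization and median polish across the arrays) for 45101 probe sets, and per the labels RMA is the one tool named, with its version not given in the sources used here. Scanner files were not used here. RMA narrows differences of dim probe sets. Groups were taken from the sample labels. In the platform annotation, which can be old, 34958 probe sets had 1 gene symbol, 932 had several and 9211 were unnamed, and only the first kind was used. For each gene the brightest probe set was compared between arrays by subtraction (Python 3.11.15, pandas 2.3.3, numpy 2.4.6, statsmodels 0.14.6, matplotlib 3.10.9), with sizes of 4-fold on any probe set and 2-fold on the brightest in place of a test. The number of arrays limits the precision. Robust SD is the median absolute deviation scaled to a normal distribution. A summed level is the log2 of the sum of linear values over a list. Promoters came from RefSeq (GRCm38.p6).

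Named genes were all members, the pathway genes past 2-fold in a comparison of Ets2-null with Ets2-present fibroblasts (at most 3 per list with values), the 3 genes nearest to each member spanning more than 1, and markers of cell types that moved with a member. Values given for *Igfbp1*, *Igf1os*, *Igf2os*, *Socs2*, *Meg3* and *Peg3* were added outside that rule after they were seen. Members, gene lists and sizes were chosen with earlier results of these data known. *Rps6kb1*, *H19*, *Igf2bp2*, *Gtl2*, *Emr1*, *Plin1* and *Cfd* had no probe set of their own symbol and were left out, and some listed genes are not reported here. Alternatives were another scaling, another choice of probe set and other sizes. The calculations were tested on simulated data.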

Additional observations from a re-analysis of the deposited data

Results flagged for a closer look

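*Igfbp3* differed in opposite directions between Ets2-null and Ets2-present fibroblasts, by −1.33 in normal and by 0.52 in ErbB2 fibroblasts, each beyond 1 robust SD of all genes. *Igf2* did so between ErbB2 and normal fibroblasts, by 0.22 with *Ets2* present and by −0.43 in Ets2-null fibroblasts. The first of these was barely past the robust SD of 0.213 and was 0.16 after quantile normalization. The second *Igf2* probe set, under the background limit, gave 0.25 and 0.26 with no change of sign. The brightest probe set read 6.02 on the ErbB2 Ets2-null array, at that limit. Each value compares 1 array with 1 array, so neither difference between groups was tested.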

How the results depend on the processing

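A count was taken as kept within 1.5 times, and a median or single value within 1 robust SD of all gene differences (0.213 to 0.271 in the 4 comparisons), a wide limit for a median. The single values include each member's difference between the Ets2 differences, which was held against its own robust SD over all genes, not given here. By these limits 119 of 128 recomputed counts and medians were kept and 9 moved, and of 350 single values 324 were kept, 26 moved and 0 reversed past 2-fold. Some of these could not move. A setting that asked for 6 or more on the higher array left every brightest probe set in, and *Igfbp2* and *Igfbp6* have a single probe set each. Only values past 2-fold could be called reversed. These tallies are therefore no measure of how firm the results are. With the probe set of largest difference the member median went to 0.24 in normal and 0.17 in ErbB2 fibroblasts for the Ets2 difference. Median centring, quantile normalization and loess correction changed no count and left *Igf1* between 1.21 and 1.38 and *Igf2* between −1.16 and −1.08 in ErbB2 fibroblasts, and *Igfbp3* between −1.34 and −1.31 in normal ones. With the mean over probe sets, 0 members were higher and 0 lower past 2-fold between the ErbB2 arrays (*Igf1* 0.96, *Igf2* −0.52), and 0 passed 4-fold between ErbB2 and normal Ets2-null fibroblasts. That 4-fold count was also 0 on the brightest probe set and at 8-fold. With the probe set of largest difference, 2 members were lower there past 2-fold, and at 1.5-fold 2 were lower (as with *Ets2* present), while 1 was higher in Ets2-null normal fibroblasts. Quantile normalization gave *Igfbp2* 0.08 and *Igfbp5* 0.07 between the ErbB2 arrays, and a member median of −0.00 for ErbB2 minus normal with *Ets2* present. *Igfbp5* in Ets2-null normal fibroblasts gave −0.12 without probe sets of shared-transcript suffix. Each genotype has 1 array, and no paired analysis was made. Differences of dim genes such as *Igf2* are limited by signal over background.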
